A study of Homo sapiens with 12 samples.

Results

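The vehicle baseline of MDA-MB-468, a breast cancer cell line, was described from the 3 libraries labelled DMSO, out of 12 in the series. Membership was set by the label alone, and the DMSO libraries are called A, B and C after their titles. The line is an established epithelial model of triple-negative disease, which lacks the oestrogen and progesterone receptors and ERBB2 amplification, and it is known for an amplified EGFR gene and for the loss of working RB1 and SMAD4. The series also holds 3 libraries of cells given 10 nM docetaxel for 8 h, 3 given 10 nM docetaxel for 24 h, and 3 given 5 µM tazemetostat with 5 µM ipatasertib for 24 h. Docetaxel stabilises microtubules, tazemetostat inhibits the histone methyltransferase EZH2 and ipatasertib inhibits the kinase AKT. DMSO, the solvent, was the only agent that the labels give to libraries A, B and C. The cells of the targeted arm had 5 days of tazemetostat or DMSO before dosing, which was done in medium with 2% serum. For the DMSO libraries the hours of exposure, the serum and the plate are not given, nor whether A, B and C were separate cultures, so the spread below may be technical. As a model, all 3 libraries stand for 1 cell line.

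Epithelial cells of the breast fall into a luminal lineage, which lines the duct and carries the simple keratins, and a basal lineage, which lies beneath it and carries KRT5, KRT14 and KRT17. Signals from outside reach such cells through receptor tyrosine kinases, which feed the PI3K, AKT and MAPK pathways, and through TGF-beta and BMP receptors, which feed the SMAD proteins. Progress into S phase depends on cyclins and CDKs, which inactivate RB1 and so release the E2F transcription factors.

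Total counts were 41512254 in A, 30654888 in B and 32619948 in C. Across 15457 genes the log2 CPM of the pairs of libraries correlated with a Pearson r of 0.997 to 0.998, as a description. The pairs differed by more than counting error, with a chi-square of 3.33 to 4.04 per degree of freedom, and were counted as 3 samples. Levels are given in TPM, in which each gene's count is divided by its exon length and scaled to the same total in every library, so that levels can be compared between genes. CPM are counts scaled to library size, without the length. A gene was called expressed at 1 TPM or more in each library and silent below 0.1 TPM in each library. With 1 group, no test was made: an exact test over 3 libraries could not fall below p = 0.25, two-sided.

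Of 19880 protein-coding genes, 11824 (59.5%) were expressed, 5246 (26.4%) were silent and 2810 (14.1%) lay between. The median expressed gene stood at 22.1 TPM in A, 22.2 TPM in B and 21.8 TPM in C. Between 1616 and 1639 genes of a library reached 100 TPM, and 94 to 96 reached 1000 TPM. The 100 most abundant genes held 20.1% ± 0.181 of the counts and, ranked by TPM, 32.5% ± 0.542 of the TPM (SD, n = 3). Of the counts, 50% or just over lay in 963 ± 6.51 genes (SD, n = 3).

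**Figure D1:**
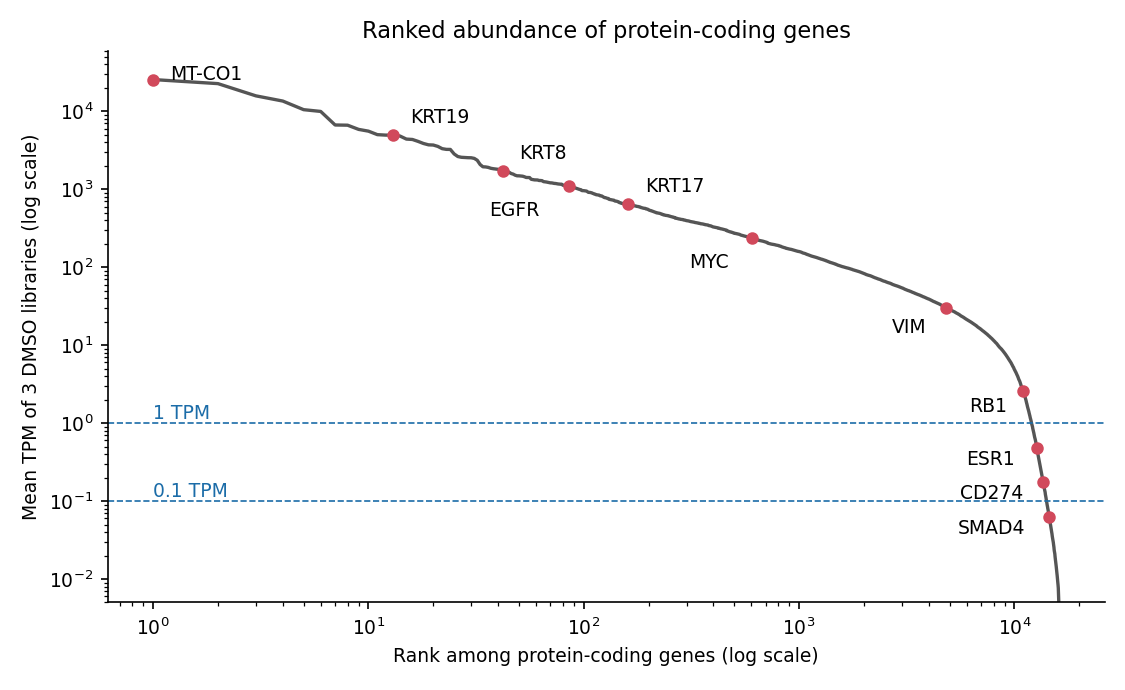
Mean TPM of the 3 DMSO libraries (vertical, log scale) against rank among protein-coding genes (horizontal, log scale), with named genes in red and dashed lines at 1 and 0.1 TPM. KRT19 stood at rank 13 and EGFR at rank 85, whereas ESR1, CD274 and SMAD4 fell below 1 TPM.

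The top of the ranking was held by the mitochondrial genome. MT-CO1, a catalytic subunit of cytochrome c oxidase, had 23485 TPM in A, 25760 TPM in B and 27613 TPM in C. MT-CO2, its partner subunit, had 22417, 22636 and 23084 TPM. All 37 genes of that genome held 4.21% ± 0.244 of the counts but 16.0% ± 0.736 of the TPM (SD, n = 3), since they are short. MT-CO1 lay above MT-CO2 in every library.

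Among nuclear genes the highest was EEF1A1, the translation elongation factor, at 6776, 6881 and 6420 TPM in A, B and C. ACTB, cytoplasmic beta-actin, followed at 6519, 6911 and 6524 TPM, and the ranges of these 2 genes overlapped. CHCHD2, a mitochondrial intermembrane protein, came next at 5990.5, 5932 and 5704 TPM and lay below both in every library. The next nuclear genes were the actin-binding peptide TMSB10 at 5031 ± 153 TPM, gamma-actin ACTG1 at 4963 ± 156 TPM and the simple keratin KRT19 at 4957 ± 74.7 TPM (SD, n = 3 each). These 3 could not be put in order, because their ranges overlapped. FTH1, the ferritin heavy chain, RPS12, a ribosomal protein, SEC61G, a subunit of the protein translocon, and GAPDH, of glycolysis, completed the nuclear genes of the top 20 with 4361 ± 298, 4120 ± 83.5, 3723 ± 189 and 3700 ± 71.1 TPM. Of the 19 neighbouring pairs in the top 20 of all coding genes, 13 had overlapping ranges, as did 183 of 199 in the top 200. Each library kept 99 of the 100 genes with the highest mean in its own top 100. The 86 cytosolic ribosomal protein genes held 5.42% ± 0.138 of the counts and the 55 keratins 1.35% ± 0.00510 (SD, n = 3).

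The 5 markers named for these cells were all far above the median gene. KRT19 had 4909 TPM in A, 4918 TPM in B and 5043 TPM in C. KRT8, the type II keratin of simple epithelia, had 1715, 1739 and 1693 TPM, and KRT5, the type II keratin of the basal layer, had 1340, 1378 and 1318 TPM. EGFR, the receptor of EGF and TGF-alpha, had 1035, 1169 and 1059 TPM, and KRT17, a basal and wound keratin, had 648, 641 and 637 TPM. The ranges of the 5 did not overlap, so that their order by TPM was the same in every library. That order depends on the exon lengths used, 6881 bases for KRT8 and 2336 for KRT19. By CPM, without the length, KRT8 had a mean of 3443 and KRT19 a mean of 3377. The order under other lengths was not tested. Luminal and basal keratins were thus both present in abundance in the same RNA. In RNA from many cells at once, fewer cells that make a transcript and less of it per cell cannot be told apart, so whether single cells carried both was not tested.

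Of the 5 simple keratins listed, 4 were expressed: besides KRT19 and KRT8, KRT7 had 1307, 1305 and 1281 TPM and KRT18, the partner of KRT8, had 998, 1039 and 1013 TPM. KRT20, a keratin of gut and urothelium, stood at 0.618 ± 0.0638 TPM. All 10 basal and wound keratins had counts and 9 (90%) were expressed, against 59.5% of all coding genes. KRT81, a hair keratin, reached 961 ± 26.9 TPM, KRT16 reached 314 ± 2.78 TPM and KRT14, the partner of KRT5, reached 288 ± 8.56 TPM (SD, n = 3 each). KRT6B, KRT23 and KRT15 had means of 221, 219 and 151 TPM. KRT6A had 4.73, 6.67 and 6.66 TPM and KRT6C had 2.19, 0.858 and 0.828 TPM. Those 2 are near-identical to KRT6B in sequence, so reads may have been split between them and their levels are uncertain.

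**Figure D2:**
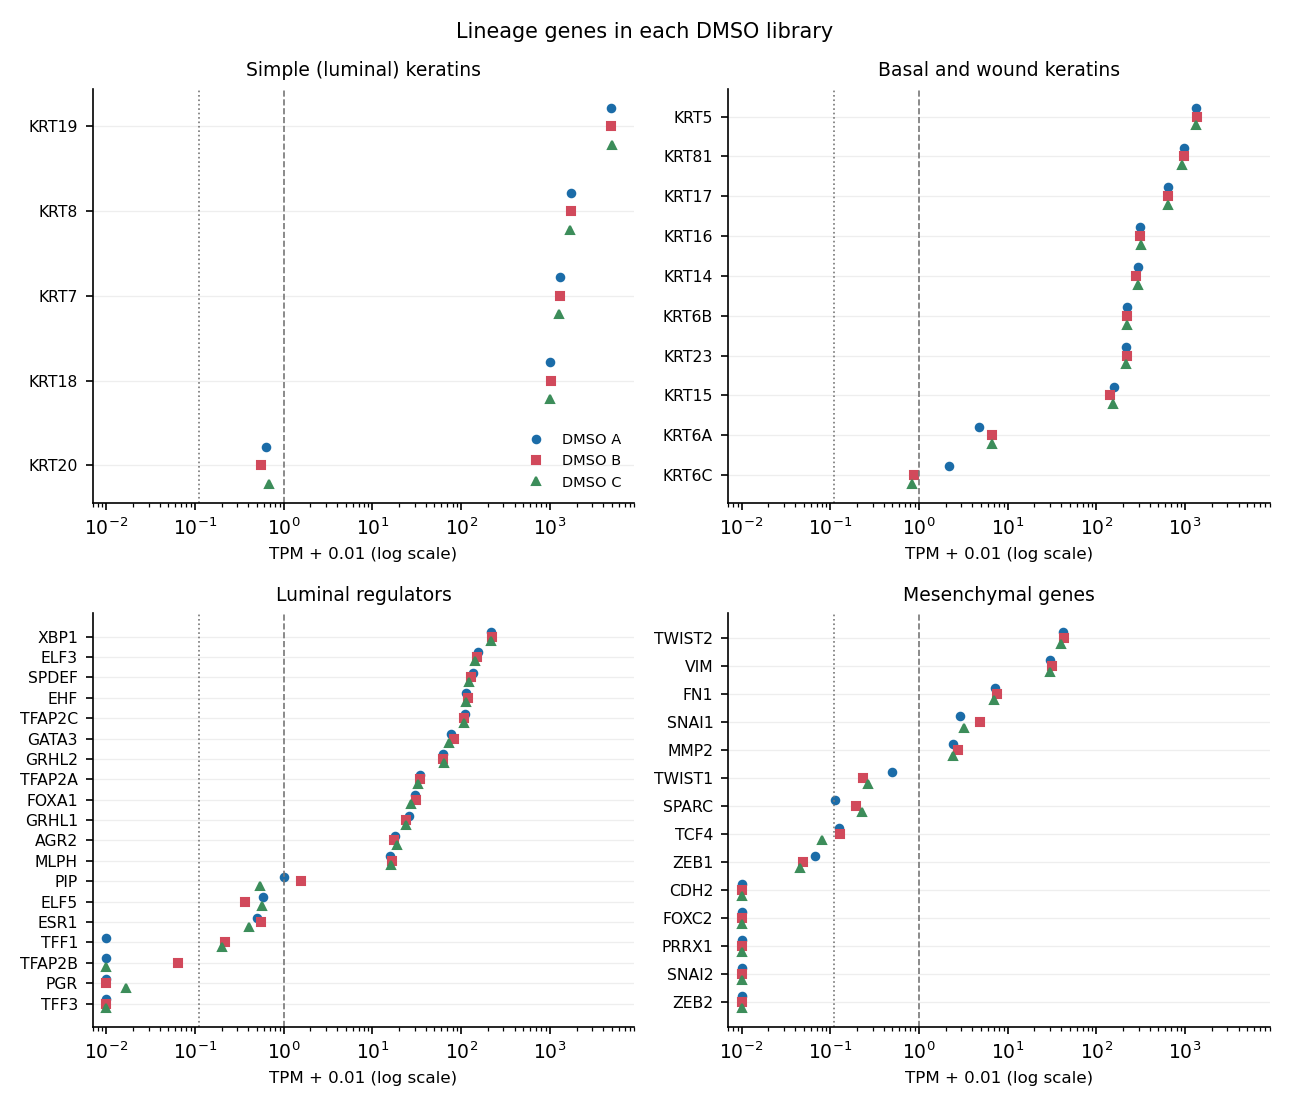
TPM + 0.01 (horizontal, log scale) of the members of 4 lineage lists (vertical) in each DMSO library, A as circles, B as squares and C as triangles, with the dashed line at 1 TPM and the dotted line at 0.1 TPM. Simple and basal keratins stood together at the right, whereas PGR, TFF3, CDH2 and ZEB2 stood at or next to 0.

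Of 20 luminal regulators, 12 (60%) were expressed, a share close to the 59.5% of all coding genes, 4 lay between and 4 were silent. XBP1, a factor of the secretory cell, was highest at 218, 224 and 216 TPM. The epithelial ETS factors ELF3, at 149 ± 6.11 TPM, SPDEF, at 136, 129 and 121 TPM, and EHF, at 116 ± 3.89 TPM, were lower (SD, n = 3). GATA3, the master regulator of luminal fate, had 77.8, 83.8 and 73.5 TPM, and FOXA1, which opens chromatin for hormone receptors, had 30.3, 30.8 and 27.4 TPM. ESR1, the oestrogen receptor alpha, had 0.488, 0.546 and 0.399 TPM from 202 counts in all. PGR, the progesterone receptor, had 1 count, in C. TFF3, an oestrogen-responsive trefoil peptide, had none in any library. A gene with no counts was given an upper limit of 3 counts over the 3 libraries together, which for TFF3 came to 0.0840 TPM and covers counting error only.

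Genes of the luminal progenitor were expressed in 12 of 16 cases (75%), against 59.5% of all coding genes. CD24, a surface sialoglycoprotein, had 2546 ± 25.8 TPM, SLPI, a secreted protease inhibitor, had 992 ± 37.9 TPM, and the hyaluronan receptor CD44 had 382 ± 13.9 TPM. SOX9 and FOXC1, factors of progenitor and basal-like cells, had 345, 366 and 334 TPM and 213, 211 and 205 TPM. KIT, a receptor typical of luminal progenitors, stayed below 1 TPM in every library at 0.949, 0.548 and 0.974 TPM. SOX10 was at 0, 0.0609 and 0.0562 TPM, and LTF, the milk protein lactoferrin, had counts in B alone. Of 20 basal and myoepithelial genes 12 (60%) were expressed, a share close to the 59.5% of all coding genes. Besides EGFR the 12 included the hemidesmosome integrin ITGB4 at 267 ± 9.99 TPM and the caveolar protein CAV1 at 214 ± 6.98 TPM. TP63, the master factor of basal cells, had 4.44, 4.67 and 4.53 TPM. The contractile genes of myoepithelium were low: MYLK had 0.755, 0.79995 and 0.776 TPM, CNN1 had 0.0857, 0.196 and 0.108 TPM, and ACTA2 had 0.0554, 0.266 and 0.315 TPM.

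All 20 genes of epithelial adhesion and identity were expressed. EPCAM, an adhesion molecule of epithelia, had 469.6, 475 and 463 TPM, JUP, plakoglobin, had 388, 402 and 391 TPM, and CLDN7, a tight-junction protein, had 361, 342 and 339 TPM. CDH1, E-cadherin, had 68.5, 73.4 and 67.8 TPM. Against these, 5 of 14 mesenchymal genes (35.7%) were expressed and 6 (42.9%) were silent, beside 59.5% and 26.4% of all coding genes. TWIST2, a helix-loop-helix factor, had 41.6, 43.0 and 40.1 TPM, and VIM, the intermediate filament of mesenchyme, had 30.2, 31.3 and 29.7 TPM. FN1, fibronectin, SNAI1, a repressor of CDH1, and MMP2, a gelatinase, had means of 7.26, 3.66 and 2.53 TPM. EPCAM exceeded VIM by 15.2 to 15.6 times within a library. CDH2, N-cadherin, and the factors SNAI2, ZEB2, FOXC2 and PRRX1 had no counts, and ZEB1 had 0.0572, 0.0392 and 0.0362 TPM.

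Markers of other cell types were mostly absent, with 5 of 40 (12.5%) expressed, against 59.5% of all coding genes, 11 between and 24 silent. None of the 6 adipocyte markers was expressed, and ADIPOQ, FABP4 and LEP had no counts. Of 11 fibroblast markers only COL1A1, a collagen chain, was expressed, at 7.63, 7.79 and 8.00 TPM, while COL1A2, the chain it pairs with, and DCN, LUM and POSTN had no counts. Of 13 immune markers, CD14, a co-receptor for bacterial lipopolysaccharide, had 98.1, 96.8 and 101 TPM and CSF1R had 1.87, 2.00 and 1.78 TPM. PTPRC, the pan-leukocyte marker CD45, had 0.0360, 0 and 0.0114 TPM, and CD3D, CD3E, MS4A1, FCGR3A and TYROBP had no counts. Of 10 endothelial markers the VEGF receptor KDR had 12.2, 12.6 and 11.3 TPM and the junction protein ESAM had 10.8, 10.1 and 10.6 TPM, whereas PECAM1 stood at 0.0532, 0.0146 and 0.0806 TPM and CDH5 at 0.448, 0.501 and 0.189 TPM. The summed levels of these lists were 9.26 to 10.1 TPM for fibroblasts, 99.0 to 103 TPM for immune cells, 22.5 to 24.2 TPM for endothelium and 1.52 to 2.22 TPM for adipocytes. DPT and CD68 share 30% or more of their exon bases with another gene on the same strand, so that their 0 cannot be read. Both stay among the 24 counted as silent.

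**Figure D3:**
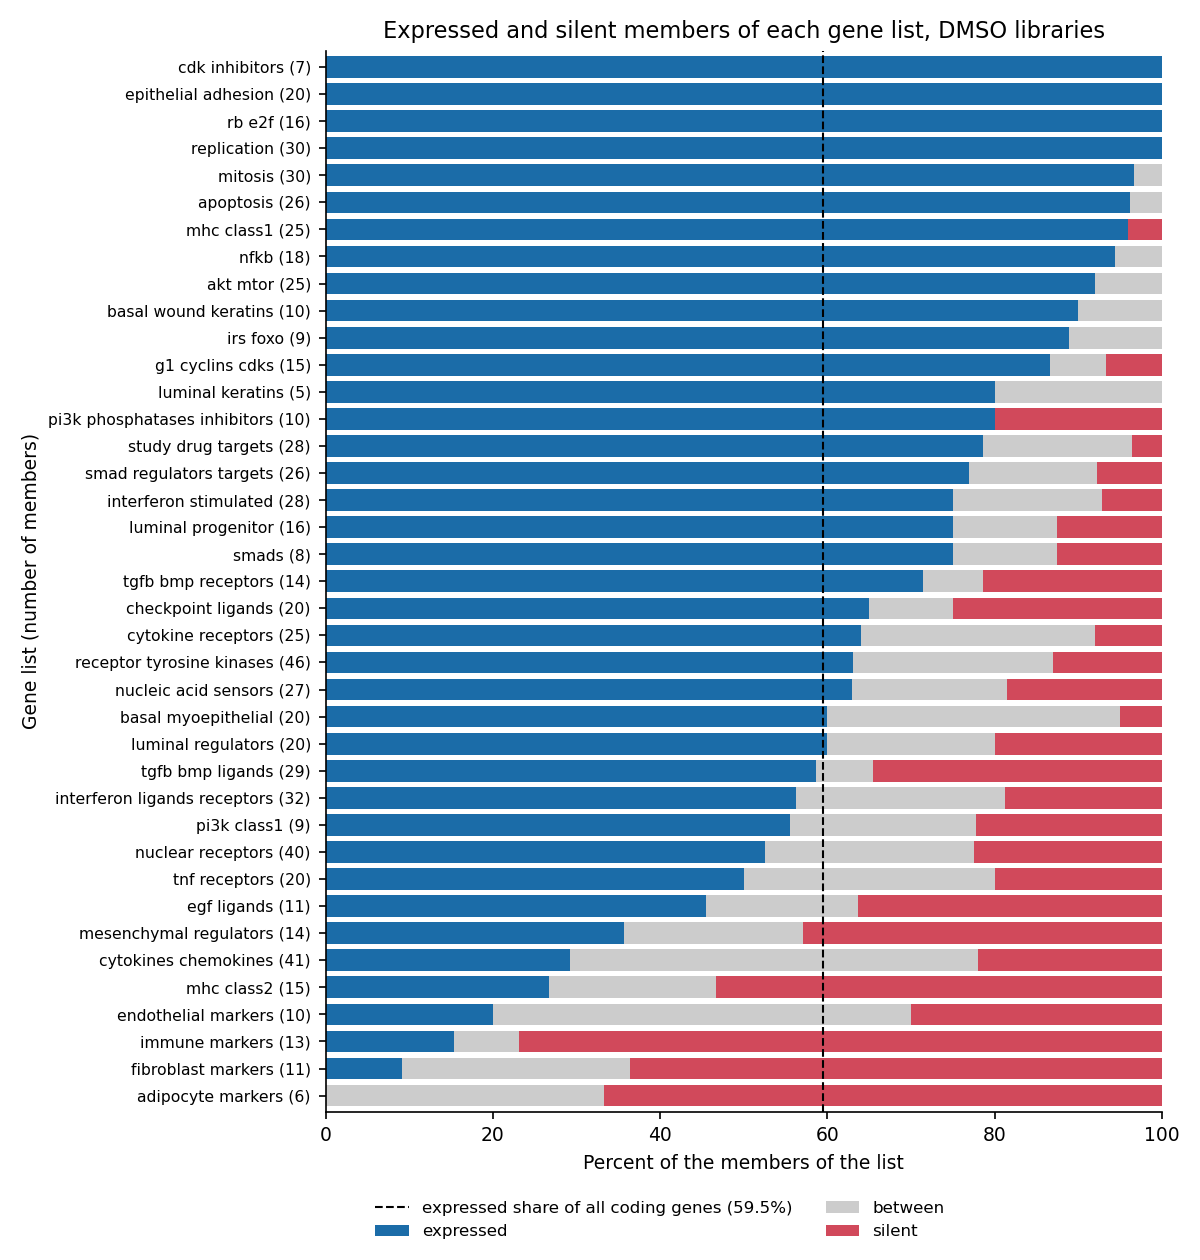
Share of the members of each gene list (horizontal, percent; number of members in brackets) that were expressed, between or silent in the DMSO libraries, with the dashed line at the 59.5% of all coding genes that were expressed. Cell cycle, replication and epithelial adhesion lists lay at or close to 100%, and lists of other cell types lay lowest.

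Across the 754 genes of the 40 lists, 515 (68.3%) were expressed and 116 (15.4%) silent, against 59.5% and 26.4% of all coding genes. These counts keep 16 members that share 30% or more of their exon bases with another gene on the same strand. The 98 cell cycle genes stood highest with 96.9% expressed and a median of 57.8 TPM, followed by the 54 genes of drug targets, drug handling and apoptosis with 87.0% and a median of 26.7 TPM and the 53 PI3K genes with 83.0% and a median of 14.4 TPM. Lineage genes followed with 70.6% of 102, SMAD pathway genes with 68.8% of 77, immune genes with 61.2% of 206, receptors with 57.0% of 142 and markers of other cell types with 12.5% of 40. The shares of the immune genes and the receptors were thus close to that of all coding genes. In all, 60 members had no counts in any library, with upper limits between 0.00367 and 0.114 TPM and a median of 0.0289 TPM. For 3 of the 60 the limit lay above 0.1 TPM, so that silence was not detectable at this depth.

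Receptor tyrosine kinases were expressed in 29 of 46 cases (63.0%), close to the 59.5% of all coding genes. EGFR stood apart from all the other kinases listed. EGFR held between 2.96 and 3.30 times the level of DDR1, a collagen receptor and the next in order at 349.8, 354 and 338 TPM. It held 29.7 to 33.3 times the level of its partner ERBB2, which had 34.8, 35.1 and 34.1 TPM. MET, the receptor of hepatocyte growth factor, had 111, 124 and 115 TPM, and the ephrin receptors EPHB4 and EPHA2 had 97.3 ± 2.01 and 82.1 ± 2.39 TPM (SD, n = 3 each). ERBB3, a receptor with little kinase activity of its own, had 26.5, 27.2 and 25.5 TPM and ERBB4 had 5.15, 5.46 and 4.85 TPM. EGFR was the kinase with the widest absolute spread of these, with B above A and C. Below 1 TPM were AXL at 0.848, 0.877 and 0.728 TPM, PDGFRA at 0.483, 0.580 and 0.835 TPM, and RET at 0.167, 0.327 and 0.196 TPM. ALK, INSRR, ROR2, TIE1, NTRK3 and FLT4 were silent, the last 2 with no counts.

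The ligands of the EGF family were far lower than the receptor. Of 11, TGFA, HBEGF, BTC, AREG and NRG2 were expressed. TGFA, the ligand TGF-alpha, led with 24.7, 26.5 and 26.6 TPM, 4.16 to 4.55 times the level of HBEGF, the heparin-binding ligand at 5.93, 6.14 and 5.84 TPM. BTC, betacellulin, had 4.86, 3.81 and 3.81 TPM, AREG, amphiregulin, had 2.40, 1.99 and 4.17 TPM, and NRG2, a neuregulin, had 1.19, 1.12 and 1.18 TPM. AREG varied most of the 5, with C above A and B, and its range overlapped that of BTC. EPGN, epigen, had 0.773, 0.809 and 0.345 TPM and EGF itself had 0.256, 0.387 and 0.425 TPM. EREG, epiregulin, was silent at 0.0577, 0.0790 and 0.0729 TPM, NRG4 had 0.0656, 0 and 0.0207 TPM, and NRG1 and NRG3 had no counts.

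Among nuclear receptors 21 of 40 (52.5%) were expressed, against 59.5% of all coding genes. The orphan receptor NR2F6 was highest at 472, 491 and 468 TPM, followed by ESRRA, an oestrogen-related receptor, at 178, 181 and 175 TPM and by the oxysterol receptor NR1H2 at 97.4, 99.1 and 94.0 TPM. VDR, for vitamin D, had 51.0, 52.3 and 53.5 TPM, and NR3C1, the glucocorticoid receptor, had 19.8, 21.9 and 21.3 TPM. Among those with no counts were NR1H4, NR1I2, RORB and RXRG. Of 25 cytokine receptors 16 (64%) were expressed, led by the interleukin-13 receptor chain IL13RA1 at 51.8 ± 0.841 TPM. OSMR, for oncostatin M, and IL6ST, the chain that interleukin-6 type receptors share, had 24.2, 24.0 and 23.1 TPM and 22.3, 24.3 and 22.2 TPM. IL6R, the specific chain for interleukin-6, stayed below 1 TPM at 0.882, 0.858 and 0.792 TPM, and IL2RA had no counts. Of 20 receptors of the TNF family 10 (50%) were expressed, with TNFRSF12A, the TWEAK receptor, at 261, 248 and 263 TPM. The death receptors TNFRSF10B and TNFRSF10A had 25.1 ± 1.10 and 14.2 ± 0.324 TPM (SD, n = 3 each), whereas FAS had 0.233, 0.266 and 0.147 TPM and CD40 had no counts.

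EGFR lies on chromosome 7, where its neighbours were high too. Of 19622 windows of 10 neighbouring coding genes, the one with the highest median spanned chr7:54752250-56063989 (GRCh38) from SEC61G to CCT6A. Its median was 499 TPM, against 6.39 TPM as the median over all windows, and 7 of its 10 genes reached 100 TPM. SEC61G, LANCL2 and VOPP1, coding genes beside EGFR, had 3723 ± 189, 775 ± 9.02 and 395 ± 11.4 TPM, and PSPH, of serine synthesis, and the chaperonin subunit CCT6A had 604 ± 2.74 and 1710 ± 5.72 TPM (SD, n = 3 each). Within the window ZNF713, a zinc finger gene, had 14.2 ± 0.0863 TPM, and VSTM2A, beyond SEC61G, was at 0, 0 and 0.140 TPM. CHCHD2, named above, lies just beyond the window, and after NUPR2 at 79.6 ± 6.49 TPM the zinc finger genes ZNF479 and ZNF716 were at or below 0.218 TPM in every library. Copy number was not measured here. Windows overlap each other, and among those that overlap no higher one the next in order held KEAP1 on chromosome 19, with a median of 313 TPM, and the keratins from KRT15 to KRT17 on chromosome 17, with a median of 301 TPM.

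The cell cycle was the most fully expressed of the pathways, with 96.9% of its genes against 59.5% of all coding genes. All 30 replication genes were expressed, from the sliding clamp PCNA at 1114 ± 28.2 TPM and thymidine kinase TK1 at 619 ± 10.4 TPM to the helicase subunit GINS3 at 16.1, 16.0 and 16.0 TPM. Of 30 mitotic genes 29 were expressed, led by the anaphase activator CDC20 at 625, 634 and 632 TPM and the ubiquitin-conjugating enzyme UBE2C at 433, 427 and 419.9 TPM. MKI67, the proliferation marker Ki-67, had 56.2, 61.3 and 61.5 TPM. CCNB3, a germline cyclin, was the exception at 0.473, 0.627 and 0.713 TPM.

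In G1, 13 of 15 genes (86.7%) were expressed, against 59.5% of all coding genes. MYC, the growth factor-responsive transcription factor, had 243, 233 and 227 TPM, and its neural relative MYCN had 55.3, 56.3 and 56.0 TPM, whereas MYCL had 0.538, 0.468 and 0.576 TPM. CDK4 had 79.9, 79.8 and 77.3 TPM, 6.26 to 7.45 times the level of its relative CDK6 at 10.7, 12.7 and 11.2 TPM. Of the D cyclins, CCND3 had 50.7, 51.1 and 50.4 TPM and CCND1 had 43.5, 44.5 and 43.2 TPM, while CCND2 had no counts, a limit of 0.0137 TPM. CCNE1, the cyclin of CDK2, had 49.8, 49.4 and 50.4 TPM and CCNE2 had 10.7, 10.7 and 9.08 TPM.

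All 7 CDK inhibitors were expressed, against 59.5% of all coding genes. CDKN2A, which encodes p16 and p14ARF, was highest at 217, 217 and 223 TPM, 4.46 to 4.84 times the level of CDKN1A, p21. CDKN2D and CDKN2C, relatives of p16, had 103, 99.5 and 108 TPM and 71.3, 74.8 and 72.1 TPM. CDKN1B, p27, had 57.6, 52.4 and 54.7 TPM, CDKN1A had 47.0, 44.8 and 50 TPM, and CDKN2B, p15, had 47.1, 44.1 and 45.1 TPM. The last 2 overlapped, and both lay below CDKN1B in every library. CDKN1C, p57, was lowest at 5.19, 5.83 and 6.77 TPM.

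All 16 genes of the RB and E2F list were expressed, against 59.5% of all coding genes, and RB1 was the lowest of them. RB1, the retinoblastoma protein that restrains E2F, had 222, 157 and 136 counts, or 2.84, 2.75 and 2.20 TPM. Its relatives RBL2, p130, and RBL1, p107, had 35.8, 36.1 and 35.1 TPM and 11.6, 11.9 and 12.3 TPM, so that RBL2 exceeded RB1 by 12.6 to 16.0 times. LPAR6, which lies inside RB1, had no counts, and RCBTB2, which the annotated span of RB1 also covers, had 1.07, 0.892 and 1.26 TPM, while ITM2B, before RB1, had 59.0, 58.3 and 58.0 TPM. MYBL2 and FOXM1, factors of late S phase and mitosis, had 461 ± 11.0 and 81.8 ± 4.04 TPM, and TFDP1, the partner of the E2Fs, had 262 ± 3.99 TPM (SD, n = 3 each). E2F1, the activator, had 162, 155 and 154 TPM, above E2F4 at 65.1, 59.2 and 58.2 TPM, E2F2 at 53.7, 53.3 and 52.2 TPM and E2F3 at 51.0, 53.5 and 51.8 TPM. E2F2 and E2F3 overlapped. E2F6, E2F8, E2F7 and E2F5 had means of 19.4, 17.2, 8.85 and 7.55 TPM, and TFDP2 and LIN54 had 18.3 and 13.03 TPM.

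**Figure D4:**
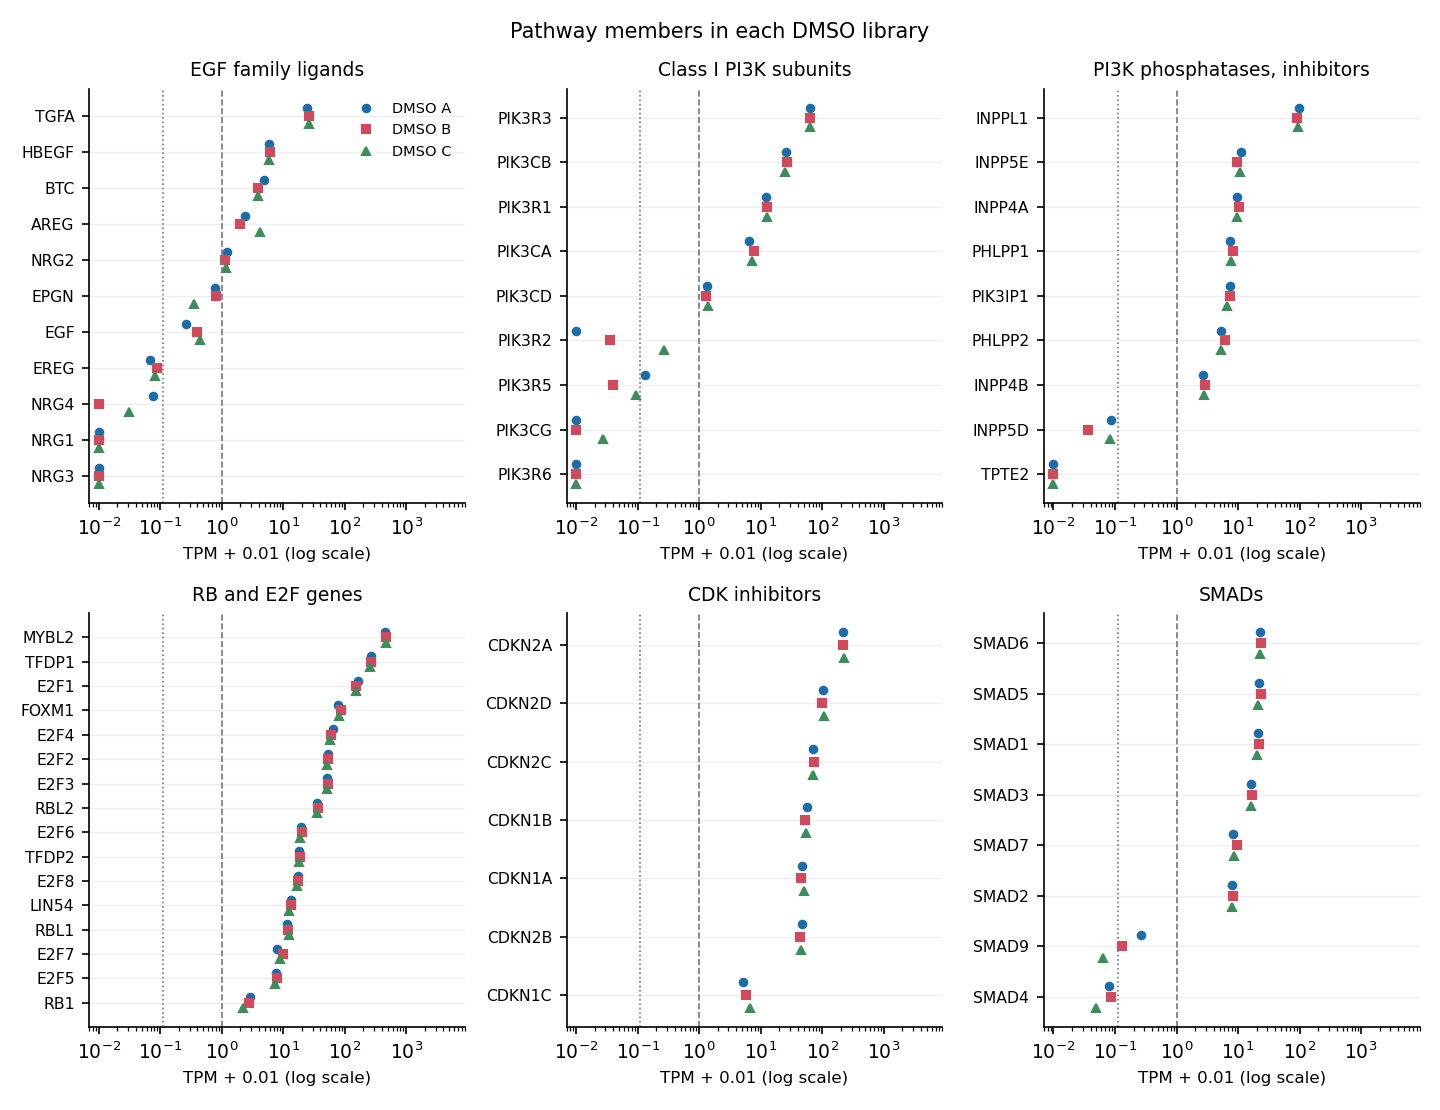
TPM + 0.01 (horizontal, log scale) of members of 6 pathway lists (vertical) in each DMSO library, A as circles, B as squares and C as triangles, with the dashed line at 1 TPM and the dotted line at 0.1 TPM. RB1 was the lowest of its list at 2.20 to 2.84 TPM, and SMAD4 was the lowest SMAD at 0.0397 to 0.0775 TPM.

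In the PI3K pathway, PI3K makes the lipid that recruits AKT, and phosphatases remove it. Of 9 class I subunits 5 (55.6%) were expressed, close to the 59.5% of all coding genes. Among catalytic subunits PIK3CB, p110-beta, led with 25.6, 27.2 and 25.2 TPM, 3.53 to 3.91 times the level of PIK3CA, p110-alpha, at 6.55, 7.72 and 7.09 TPM. PIK3CD, p110-delta of leukocytes, had 1.35, 1.27 and 1.37 TPM, and PIK3CG, p110-gamma, had a count in C alone. Among regulatory subunits PIK3R3, p55-gamma, had 63.6, 63.9 and 62.5 TPM, above PIK3R1, p85-alpha, at 12.3, 12.6 and 12.7 TPM. PIK3R5 had 0.121, 0.0301 and 0.0833 TPM and PIK3R6 had no counts. The level of PIK3R2, p85-beta, listed at 0, 0.0250 and 0.253 TPM, cannot be read, because 30% or more of its exon bases are shared with a readthrough gene on the same strand. PIK3R2 stays in the count of 9, as a gene between the classes.

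Of the 10 phosphatases and inhibitors 8 (80%) were expressed, against 59.5% of all coding genes. INPPL1, SHIP2, was highest at 99.5, 89.9 and 94.5 TPM. INPP5E, INPP4A, PHLPP1, PIK3IP1 and PHLPP2 had means of 10.5, 9.86, 7.81, 7.06 and 5.58 TPM. INPP4B, another lipid phosphatase, had 2.65, 2.92 and 2.81 TPM. INPP5D, SHIP1 of blood cells, was silent at 0.0760, 0.0260 and 0.0720 TPM, and the testis gene TPTE2 had no counts.

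Of 25 AKT and mTOR genes 23 (92%) were expressed, against 59.5% of all coding genes. The kinases AKT2 and AKT1 had 52.6, 52.7 and 52.2 TPM and 46.5, 48.9 and 48.3 TPM, so that their order was the same in all 3 libraries. The translation repressor EIF4EBP1 was the highest of the list at 497, 498 and 492 TPM, followed by the mTORC1 activator RHEB at 158 ± 3.42 TPM. The ranges of MTOR and its partner RPTOR overlapped at 27.2, 29.01 and 27.2 TPM and 29.1, 30.7 and 28.5 TPM, though RPTOR lay above MTOR in every library. RICTOR, of mTORC2, had 6.65, 6.84 and 6.09 TPM. The brakes TSC2 and TSC1 had 14.4 ± 0.315 and 4.27 ± 0.221 TPM (SD, n = 3 each). Among the adaptors and FOXO factors 8 of 9 were expressed: FOXO3 had 63.2, 70.6 and 65.6 TPM and FOXO6 had 65.2, 63.2 and 63.7 TPM, which overlapped, whereas FOXO1 had 3.08, 3.43 and 2.89 TPM. IRS2 and IRS1, the adaptors of insulin receptors, had 39.8 ± 2.89 and 27.0 ± 1.09 TPM.

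SMAD proteins carry the TGF-beta and BMP signals to the nucleus, where SMAD4 is the partner of all receptor-activated SMADs. SMAD4 was the only silent SMAD, with 11 counts in A, 9 in B and 5 in C, or 0.0691, 0.0775 and 0.0397 TPM. SMAD3 and SMAD2, which TGF-beta receptors activate, had 16.2, 17.0 and 16.2 TPM and 7.92, 8.36 and 7.91 TPM, 220 to 407 times and 108 to 199 times the level of SMAD4. SMAD5 and SMAD1, of the BMP branch, had 22.0, 23.5 and 21.0 TPM and 21.4, 22.2 and 20.03 TPM. Their ranges overlapped, though SMAD5 lay above SMAD1 in every library. The third member of that branch, SMAD9, had 0.259, 0.118 and 0.0546 TPM. The inhibitors SMAD6 and SMAD7 had 22.6, 23.7 and 23.1 TPM and 8.23, 9.63 and 8.70 TPM. Of the genes around SMAD4 on chromosome 18, ELAC1 had 0.499, 0.512 and 0.499 TPM, whereas ME2 beyond it had 12.1 ± 0.499 TPM and MEX3C on the other side had 31.2 ± 2.73 TPM (SD, n = 3 each).

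Of 14 receptors of TGF-beta and BMP ligands 10 (71.4%) were expressed, with TGFBR2 at 54.6, 58.1 and 52.1 TPM and TGFBR1, its signalling partner, at 18.4, 18.0 and 18.0 TPM. For BMP, ACVR1, BMPR2 and BMPR1A had 33.9 ± 0.497, 26.3 ± 1.84 and 15.6 ± 0.152 TPM (SD, n = 3 each), while BMPR1B, ACVRL1 and AMHR2 were silent. Of 29 ligands 17 (58.6%) were expressed and 10 (34.5%) were silent, against 59.5% and 26.4% of all coding genes. INHBB, an activin subunit, led with 122, 129.7 and 122 TPM, TGFB1 had 90.2, 97.6 and 89.3 TPM and TGFB2 had 45.2, 48.0 and 43.3 TPM, while TGFB3 had 1.43, 1.195 and 1.38 TPM. BMP10, GDF2, GDF5, GDF6 and LEFTY2 had no counts. Of 26 regulators and targets 20 were expressed, with CTGF, a matricellular protein, at 301, 270.4 and 247 TPM and the helix-loop-helix inhibitor ID4 at 137, 133 and 134 TPM. ID1, a target of BMP signals, had 61.2, 64.1 and 62.1 TPM. GREM1, a BMP antagonist, was silent.

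Antigen presentation was divided by class. Of 25 class I genes 24 (96%) were expressed, with a median of 49.9 TPM. CALR was the highest of them, with a mean of 1024 TPM. The heavy chains HLA-C and HLA-B had 272, 259 and 270.3 TPM and 125, 121 and 124 TPM, but HLA genes vary between people and resemble each other, so that reads may be missed or shared. B2M, their light chain, had 213, 215 and 205 TPM, and the peptide transporter TAP1 had 52.0, 49.4 and 50.4 TPM. HLA-G, of the placenta, was silent with a count in B alone. Of 15 class II genes 4 (26.7%) were expressed and 8 (53.3%) silent, against 59.5% and 26.4% of all coding genes. HLA-DRA, HLA-DRB1, HLA-DPB1, HLA-DQA1 and HLA-DOA had no counts, and the invariant chain CD74 had 0.0259, 0.0709 and 0.0655 TPM. CIITA, the class II transactivator, had 0.0795, 0.0599 and 0.116 TPM, whereas RFXANK and RFX5, which bind class II promoters with it, had 98.0 ± 3.04 and 34.1 ± 1.24 TPM.

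No interferon listed reached 1 TPM, whereas several sensors and receptors did. Of 27 nucleic acid sensors and adaptors 17 (63.0%) were expressed, close to the 59.5% of all coding genes, among them the adaptor TMEM173, STING, at 39.8, 37.4 and 40.7 TPM, the adaptor MAVS at 36.4, 38.0 and 37.6 TPM, and CGAS, the DNA sensor, at 1.17, 1.196 and 1.15 TPM. TLR8 and ZBP1 had no counts. Of 32 interferon ligands, receptors and their signalling genes 18 (56.3%) were expressed, also close to that share. The kinases TYK2 and JAK1 had 204 ± 7.45 and 97.9 ± 4.07 TPM, and the receptor chains IFNAR1 and IFNGR1 had 44.6 ± 0.760 and 85.9 ± 0.198 TPM (SD, n = 3 each). IFNA1, IFNG and IFNK had no counts, nor had IRF8, a factor of blood cells, and IFNB1 had counts in A alone. Of 28 interferon-stimulated genes 21 (75%) were expressed, with the antiviral membrane protein IFITM3 at 676, 679 and 667 TPM and the ubiquitin-like ISG15 at 65.6, 71.9 and 76.5 TPM, whereas XAF1 and MX2 were silent. IFITM1 and IRF9 share exon bases with other genes on the same strand, so that their levels cannot be read.

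In the NF-kB system 17 of 18 genes (94.4%) were expressed, against 59.5% of all coding genes. The inhibitor NFKBIB led at 187 ± 2.05 TPM, with the subunit RELA at 104 ± 5.97 TPM (SD, n = 3 each). The feedback gene TNFAIP3 had 1.78, 1.90 and 1.49 TPM. Cytokines and chemokines were far lower, with 12 of 41 (29.3%) expressed, 20 between and a median of 0.324 TPM. CX3CL1, a membrane-bound chemokine, had 61.5, 60.01 and 59.3 TPM, CXCL16 had 54.0, 55.6 and 54.0 TPM, and CCL28, a chemokine of mucosal epithelia, had 36.0, 34.9 and 35.0 TPM. LIF had 31.7, 28.1 and 25.9 TPM and CXCL8, interleukin-8, had 4.75, 4.87 and 5.68 TPM, whereas IL6 had 0.0797, 0.218 and 0.0504 TPM. CXCL12, CXCL14, CSF3, IL2, IL7 and IL33 had no counts.

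Of 20 checkpoint ligands and related genes 13 (65%) were expressed, against 59.5% of all coding genes. VTCN1, the B7-H4 ligand of epithelial tumours, was highest at 209, 208 and 197 TPM, and PVR and NECTIN2, ligands of TIGIT, had 186, 189.9 and 177 TPM and 178, 181 and 179.8 TPM. These 3 were thus well above CD276, B7-H3, at 29.04, 30.2 and 28.4 TPM, and CD47, the signal against phagocytosis, at 22.9, 21.1 and 22.0 TPM. CD274, PD-L1, had 9, 7 and 6 counts, or 0.181, 0.192 and 0.152 TPM. PDCD1LG2, PD-L2, and CD80 and HHLA2 had no counts, and CD86 had counts in A alone.

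The targets of the study's drugs were present at baseline. EZH2 had 87.2, 90.2 and 85.5 TPM, 13.4 to 15.2 times the level of its relative EZH1, and its partners SUZ12 and EED had 31.6 ± 1.43 and 21.6 ± 0.743 TPM (SD, n = 3 each). Among beta-tubulins, to which docetaxel binds, TUBB had 2554, 2592 and 2474 TPM and TUBB4B had 483, 496 and 482 TPM. The drug efflux pump ABCB1 had 0.980, 1.19 and 1.26 TPM, the pump ABCG2 had 0.147, 0.0448 and 0.0620 TPM, and CYP3A4, an enzyme of docetaxel metabolism, had a count in A alone. Of 26 genes of apoptosis and its control 25 (96.2%) were expressed, against 59.5% of all coding genes. MCL1, a survival protein, had 269.9, 266 and 262 TPM, BCL2L1 had 93.2, 99.1 and 95.3 TPM and BCL2 had 3.32, 4.05 and 3.55 TPM. BCL2A1, a survival protein of blood cells, lay between the classes with counts in C alone.

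Promoters of expressed genes were more often rich in CpG, the dinucleotide at which DNA is methylated, than those of silent genes. RefSeq windows of 300 bases (GRCh38.p14), from 250 before to 50 after a start, were at hand for 10981 coding genes, and 90.3% of them had an annotated transcript start within 100 bases. A window was called CpG-rich at 50% or more G and C with an observed over expected CpG ratio of 0.6 or more. That held for 85.8% of 6727 expressed genes, 44.3% of 1441 genes between and 27.1% of 2813 silent genes, and for 65.3% of all. The letters TATAAA, on either strand, stood in 4.98% of expressed and 20.7% of silent windows and in 10.2% of all, but in 11 of 49 (22.4%) at 1000 TPM or more. In the 50 bases before the start, on the gene's strand, they stood in 1.90% of expressed and 9.56% of silent windows, and in 7 of 49 (14.3%) at 1000 TPM or more. The median G and C was 66% in expressed and 53% in silent windows, and the part of base composition in these shares was not tested. Among list members with a window, 204 of 260 expressed and 10 of 57 silent ones were CpG-rich. The 4 stretches below, each the 250 bases before a RefSeq start, go the other way: KRT5 and VTCN1 were abundant with few CpG, whereas SMAD4 and CXCL12 were silent with many. The 4 were chosen after their values were seen. Of keratins with a window, 0% of 8 expressed and 0% of 13 silent ones were CpG-rich, so few CpG were not particular to KRT5. The line is known for the loss of working SMAD4 and copy number was not measured, so the silence of SMAD4 cannot be set against its promoter. Capitals mark each CpG, and none of the 4 windows held TATAAA.

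Before the RefSeq start of KRT5 the stretch chr12:52520395-52520644 (minus strand) held 6 CpG, and before that of VTCN1 chr1:117210928-117211177 (minus strand) held 6. The stretch before the RefSeq start of SMAD4, chr18:51029963-51030212 (plus strand), held 25 CpG. That before the start of CXCL12, chr10:44385098-44385347 (minus strand), held 31. The KRT5 and SMAD4 stretches lie inside the annotated spans of these genes. KRT5 reaches up to position 52520687 and SMAD4 begins at 51028394, so an earlier start is annotated for each.
KRT5: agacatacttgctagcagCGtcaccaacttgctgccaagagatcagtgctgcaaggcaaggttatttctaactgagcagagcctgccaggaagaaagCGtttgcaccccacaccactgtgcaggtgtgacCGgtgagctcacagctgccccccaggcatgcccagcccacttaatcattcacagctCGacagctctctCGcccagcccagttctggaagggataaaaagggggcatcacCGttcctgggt
VTCN1: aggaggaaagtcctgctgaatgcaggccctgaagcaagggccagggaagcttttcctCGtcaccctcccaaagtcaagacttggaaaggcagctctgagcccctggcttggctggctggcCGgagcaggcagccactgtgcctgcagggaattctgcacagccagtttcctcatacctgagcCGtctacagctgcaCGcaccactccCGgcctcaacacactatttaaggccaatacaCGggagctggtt
SMAD4: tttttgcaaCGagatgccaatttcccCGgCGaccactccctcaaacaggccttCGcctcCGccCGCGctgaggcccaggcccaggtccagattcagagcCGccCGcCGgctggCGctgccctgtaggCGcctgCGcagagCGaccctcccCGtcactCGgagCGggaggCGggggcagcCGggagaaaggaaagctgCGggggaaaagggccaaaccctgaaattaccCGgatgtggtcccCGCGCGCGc
CXCL12: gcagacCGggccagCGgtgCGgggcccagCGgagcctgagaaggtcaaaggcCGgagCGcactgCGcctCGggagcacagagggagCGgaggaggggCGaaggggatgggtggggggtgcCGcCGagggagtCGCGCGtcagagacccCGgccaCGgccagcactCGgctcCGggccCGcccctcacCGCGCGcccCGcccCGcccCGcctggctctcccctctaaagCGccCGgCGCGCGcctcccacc

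The biological coefficient of variation, the spread beyond counting error that edgeR estimates over all genes, was 3.56%, and 5.92% when taken from the dispersion of DESeq2. The median CV of the 11824 expressed coding genes was 3.84%, and 208 of them (1.76%) exceeded 20%. By level, the median CV was 10.6% in the 1070 genes at 1 to 3 TPM, where the CV of counting error was 10.3%. A median of CVs over 3 libraries tends to lie below the true CV, so the spread beyond counting is larger than such gaps show. The median CV was 3.96% at 10 to 30 TPM, where counting gave 3.11%, and 1.92% at 300 to 1000 TPM, where counting gave 0.891%. In the 95 genes at 1000 TPM or more it was 2.63%, above that of the level before. Library B held the highest value in 38.1% of expressed genes and the lowest in 35.1%, library A in 31.1% and 33.5%, and library C in 30.8% and 31.4%.

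**Figure D5:**
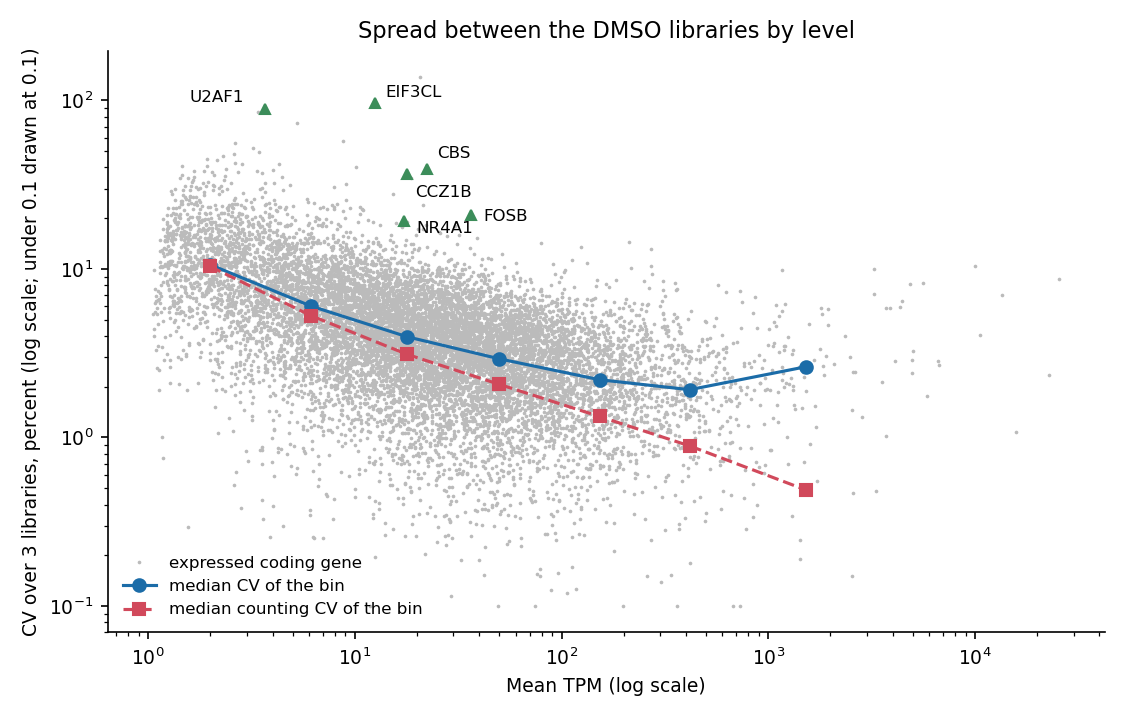
Coefficient of variation over the 3 DMSO libraries (vertical, percent, log scale) against mean TPM (horizontal, log scale) of each expressed coding gene, with bin medians as circles, the CV of counting error as squares and 6 named genes as triangles. The median CV was 10.6% at the lowest levels and 1.92% at 300 to 1000 TPM.

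The genes that varied most against their expected spread, among those of 10 CPM or more, were mainly genes with a near-identical copy elsewhere in the genome. EIF3CL, a copy of the initiation factor gene EIF3C, had 5.08, 23.7 and 4.92 CPM in A, B and C, and EIF3C had 14.8, 15.4 and 25.3 CPM. U2AF1, a splicing factor gene, had 24.0, 3.76 and 7.99 CPM, and its copy U2AF1L5 had 11.2, 20.2 and 11.8 CPM. CBS, of cysteine synthesis, had 34.2, 64.3 and 34.1 CPM and CCZ1B had 28.97, 53.8 and 30.97 CPM. When the counts of such copies were summed, the CV was 4.63% for NOMO1, NOMO2 and NOMO3, against 18.7% for NOMO2 alone. It stayed at 32.4% for EIF3C with EIF3CL, 30.3% for U2AF1 with U2AF1L5, 23.4% for CBS with CBSL and 20.1% for CCZ1 with CCZ1B. The levels of these genes are therefore uncertain in every library. Of the others in the 10, AAMDC had 22.1, 11.3 and 22.7 TPM. FOSB, an immediate early factor, had 40.3, 28.1 and 41.4 TPM, and NR4A1, another, had 21.1, 16.1 and 14.5 TPM.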

How the data were processed

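Messenger RNA of MDA-MB-468 cells was sequenced by the authors. The deposited values are whole-number counts per gene symbol, 1 table per library, made by the authors from their reads. The submitters' processing notes name fastp, HISAT2 2.0.5, DESeq2 and the build hg38, without their roles. No source used here gives the counting program, its annotation or whether it used strand, so reads of overlapping genes may have been counted together. Only the 3 DMSO tables were used, and the other 9 libraries were not used here.

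Each table had 58735 entries, of which 56967 matched a GENCODE 29 gene by symbol. The other 1768 held 0.231% of the counts (1745 repeated symbols and 23 that look like dates). TPM were computed from the counts and exon-union lengths, and CPM with TMM factors of edgeR 4.0.16 (0.998 to 1.00) in R 4.3.3. The biological coefficient of variation came from edgeR on genes kept with a minimum count of 10. The CV was that of CPM, and the CV of counting error was computed from the counts. The step was checked on simulated counts. PCR copies were not marked, so counting errors are lower bounds. Depth was 30654888 to 41512254 counts.

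Thresholds, lists and the members of each were chosen with earlier results of these data known. Genes were named mainly by a rule: the 20 highest coding genes, the given markers, the highest and lowest members of each list, all members of 8 short lists, members with no counts and the 10 most variable genes. Further members were named to show the order within a family. Some members are not reported here by name, though they stay in the counts of their lists. Alternatives covered thresholds, the unit, gene length, overlapping genes, normalization, DESeq2 1.42.0 and each library left out.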

Additional observations from a re-analysis of the deposited data

How the results depend on the processing

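The counts of expressed and silent coding genes and of expressed list members stayed within 1.5 times under 0.5 and 2 times the thresholds, the longest transcript as length, and each library left out, and the coding counts also under CPM in place of TPM. When genes overlapping a gene of the other strand were left out, 7120 coding genes were expressed, since fewer were counted. The share of counts in the 100 most abundant genes was 17.8% without mitochondrial genes and 32.5% by TPM. The biological coefficient of variation was 5.92% as DESeq2's dispersion and 2.74% to 4.18% with a library left out, lowest without B. The median CV was 3.30% at 10 CPM or more, 5.37% with no filter, and 2.69% to 3.40% with a library left out. A median of CVs over 2 libraries tends to lie below that over 3, so the values with a library left out are not a like comparison. Leaving out genes that share 50% or more of their exon bases on the same strand, chosen after seeing the data, gave 11739 expressed and 4669 silent genes. Of 280 list counts under the alternatives, 5 moved by over 1.5 times, in 4 lists. No paired analysis was possible because only the DMSO group is described. Depth limits the lowest levels: at 1 to 3 TPM the CV of counting error alone was 10.3%.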

Other observations

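Silent coding genes stood in long runs along the chromosomes. The longest run of neighbouring silent genes held 56, from OR4B1 to OR5M8 on chromosome 11, and was made mostly of olfactory receptor genes, which sense odours in the nose. A run of 47 genes on chromosome 1, from NLRP3 to OR14I1, was also mostly olfactory receptors. A run of 33 genes on chromosome 21, from KRTAP24-1 to KRTAP19-8, held hair keratin-associated proteins, and a run of 28 on chromosome 1, from RPTN to SMCP, held genes of the cornified layer of skin. These genes were silent although hair keratin KRT81 and wound keratin KRT16 were expressed at 961 ± 26.9 and 314 ± 2.78 TPM (SD, n = 3 each).

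Among entries that are not protein-coding, the highest were the mitochondrial ribosomal RNA MT-RNR2 at 12407 ± 638 TPM, the mitochondrial transfer RNAs MT-TN and MT-TC at 9561 ± 986 and 8237 ± 489 TPM, the ribosomal pseudogene RPS28P7 at 3247 ± 213 TPM and MT-RNR1 at 2843 ± 99.9 TPM (SD, n = 3 each). Transfer RNAs are short and RPS28P7 resembles its parent gene, so that these levels are uncertain. Sharing of over 50% of the exon bases on the same strand went with low levels. Of 467 coding genes with over 90% shared 1 was expressed (0.214%), and of 417 with over 50% and up to 90% shared 84 were (20.1%). Smaller overlaps did not show this: of 2498 genes with some and up to 50% shared 1755 were expressed (70.3%), and of 16498 with none shared 9984 were (60.5%). The part of the counting program in this was not tested. BOLA2B, the expressed coding gene with the highest CV, had 881, 31 and 78 counts in A, B and C. Whether its reads were split with a near-identical copy was not tested, so its level is uncertain.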
